A study of Mus musculus with 6 samples.

Results

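The 9 genes described here encode membrane pumps of the ATP-binding cassette (ABC) superfamily that carry drugs or nucleotides out of cells: Abcb1a, Abcb1b, Abcg2, Abcc1, Abcc2, Abcc3, Abcc4, Abcc5 and Abcc10. They were chosen by name, with earlier results of these data known, as efflux pumps that bear on dipyridamole together with exporters of cyclic nucleotides. They are 9 of 19938 genes named on the array. Each was represented by 1 probe set, a group of short probes whose signals are combined into 1 intensity. RNA came from 6 mammary tumours of FVB females carrying MMTV-PyMT, a transgene in which a mammary tumour virus promoter drives the polyoma middle T oncoprotein mainly in mammary epithelium. Treated mice received DPM at 10 mg/kg and control mice received vehicle, both into the peritoneum, from 4 weeks of age for 11 weeks, with 5 dosing days followed by 2 days off. Tumours were collected at 15 weeks of age, with 3 tumours per group, drawn from arms of 10 DPM and 7 vehicle mice. All animals carried the transgene, so the comparison is between treated and untreated tumours and includes no normal gland. The labels abbreviate the drug, and DPM is read here as dipyridamole from knowledge of the study. The replicates are labelled biological, but no label says that each came from a separate mouse. The p-values therefore measure the spread between these tumours.

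ABC exporters use ATP to move substrates across the plasma membrane. P-glycoprotein, encoded in mice by the paralogues Abcb1a and Abcb1b, expels bulky hydrophobic drugs and lines the capillary endothelium of brain and other barriers. Abcg2, the breast cancer resistance protein, is induced in the alveolar cells of the lactating mammary gland, where it concentrates riboflavin and drugs into milk. The ABCC or multidrug resistance protein (MRP) members carry organic anions, among them conjugates with glutathione or glucuronic acid, and Abcc4 and Abcc5 also export cyclic AMP and cyclic GMP. Dipyridamole is known to block nucleoside uptake and cyclic nucleotide phosphodiesterases, and to inhibit several of these pumps as well.

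Promoter sequences were read from RefSeq (build GRCm38.p6) for 7 of the 9 genes, with 11 annotated transcription starts. Abcc1 and Abcc3 are named only. The first pair of sequences is shown because Abcb1a and Abcb1b are neighbours on chromosome 5, followed by the lipid transporter gene Abcb4, and encode the same kind of pump from separate promoters. Each sequence holds the 120 bases before the annotated start, 5′ to 3′ on the gene's strand, and capitals mark matches on either strand to the GC box (GGGCGG) or the CCAAT box (CCAAT). The Abcb1a stretch is chr5:8566971-8567090, plus strand, and the Abcb1b stretch is chr5:8798027-8798146, plus strand.
Abcb1a: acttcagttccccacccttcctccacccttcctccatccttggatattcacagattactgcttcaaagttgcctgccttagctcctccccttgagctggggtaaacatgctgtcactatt
Abcb1b: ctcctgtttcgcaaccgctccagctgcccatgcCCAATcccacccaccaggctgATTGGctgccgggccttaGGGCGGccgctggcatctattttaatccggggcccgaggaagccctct
The Abcb1b stretch holds CCAAT in both orientations and a GC box, and the Abcb1a stretch holds neither motif. Over the 250 bases before the start, G and C made up 40.4% of the Abcb1a window and 52.8% of the Abcb1b window, against a median of 52.4% over 32851 windows. A GC box was present in 32.7% and a CCAAT box in 33.8% of all these windows, and in 6 and 2 of the 11 windows of the transporter genes.

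Another pair is shown because Abcc2 and Abcc4 are known targets of NRF2, the transcription factor of the antioxidant response, whose target genes are described further on. Here capitals mark the core of the antioxidant response element (TGACNNNGC, either strand). The Abcc2 stretch is chr19:43782188-43782307, plus strand, and the Abcc4 stretch is chr14:118706220-118706339, minus strand.
Abcc2: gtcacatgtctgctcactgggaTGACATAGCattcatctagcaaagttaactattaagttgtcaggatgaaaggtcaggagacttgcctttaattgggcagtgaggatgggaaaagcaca
Abcc4: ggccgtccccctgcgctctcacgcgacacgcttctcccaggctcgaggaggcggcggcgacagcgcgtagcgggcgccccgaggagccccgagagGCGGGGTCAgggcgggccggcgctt
This core was found in 4 of the 11 windows, belonging to Abcc2, Abcc4 and Abcc10, and in 10.2% of all windows. A match to letters is a description of the sequence and not evidence of binding.

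Deposited median intensities ran from 270 to 301 over the 6 arrays, and upper quartiles from 717 to 887, with both arrays numbered 3 at the top. Levels below are log2 intensities after quantile normalisation, which gives every array the same distribution. Genes whose mean lay under the 25th percentile, 7.24 on this scale, were left out of the test, and Abcb1b and Abcc2 fell below it. All 11 luminal epithelial markers passed that filter, as did 8 of 8 basal and 8 of 8 alveolar secretory markers named on the array. So did all 13 endothelial, 9 macrophage, 7 skeletal muscle and 2 erythroid markers. Of the rest, 7 of 8 fibroblast, 5 of 9 lymphocyte and 5 of 7 adipocyte markers passed. Among all 19938 genes, 14953 passed. Fewer cells of a type and less RNA per cell cannot be told apart in whole tumour tissue.

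None of the 9 pump genes was shown to differ between DPM and vehicle tumours. The limma fit over 14953 genes called 0 genes at an adjusted p under 0.05, or 0%, and hence 0 of the 7 transporter genes tested. Of these 7, only Abcc1 had an unadjusted p under 0.05, as did 3.87% of all genes tested (578). The mean was higher in DPM tumours for 4 of the 9 transporter genes and lower for 5, where 49.9% of all 19938 genes were higher. The median difference of the 9 was -0.01 log2, against a median of 0.00055 over the genes tested. The largest difference, that of Abcc1, was -0.26 log2.

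The intervals show how large a difference these arrays leave possible. The 95% interval of the difference, taken for each gene without adjustment for the number of genes, lay within 1 log2 unit of 0 (2-fold either way) for 9 of 9, as it did for 98% of all genes. It lay within 0.5 log2 unit for 8 of 9, Abcc5 being the exception, and for 79.5% of all genes. The spread between tumours of a group differed among the pumps, from an SD of 0.036 for Abcc10 to 0.296 for Abcc5, around a median of 0.135 over the genes tested. Precision is limited by having 3 arrays in each group.

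**Figure D1:**
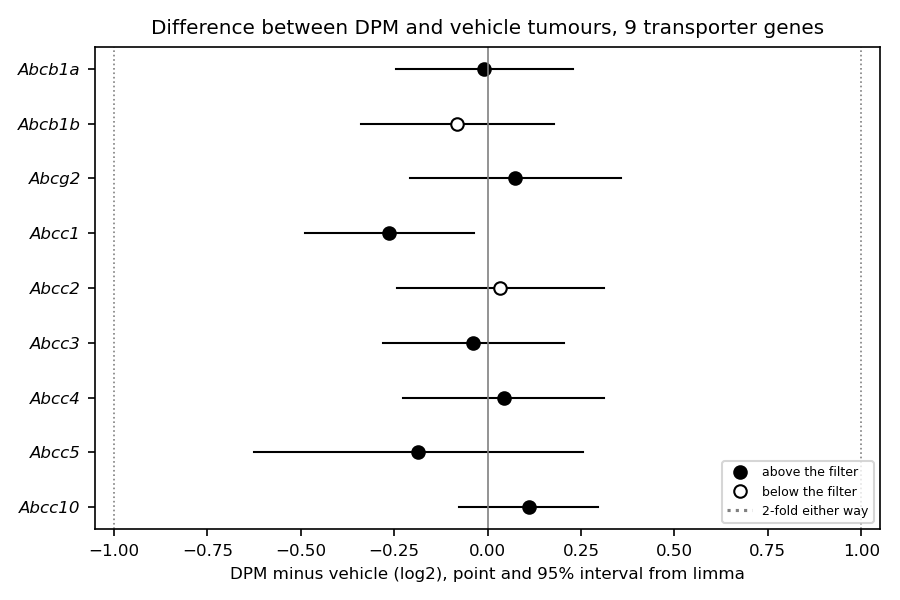
DPM minus vehicle difference of the 9 transporter genes on the log2 scale, with the limma 95% interval; open points are Abcb1b and Abcc2, which lay below the filter and come from the fit without it. All 9 intervals lie inside the dotted lines at 2-fold, and only that of Abcc1, from -0.49 to -0.04, leaves out 0 at the reported settings.

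**Figure D2:**
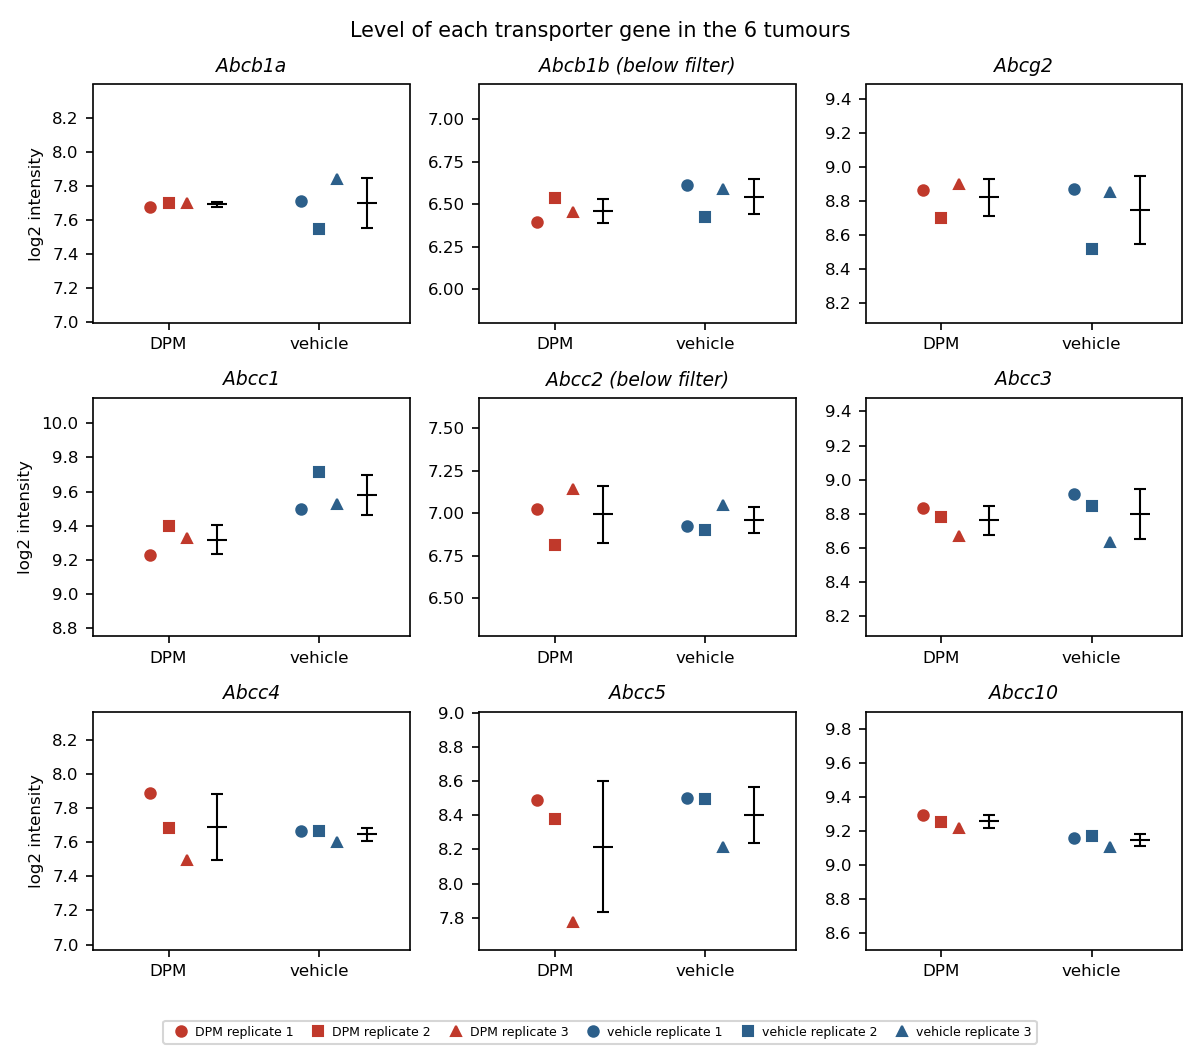
Quantile-normalised log2 intensity of each gene in the 3 DPM (red) and 3 vehicle (blue) tumours, each panel spanning the same height; symbols mark the replicate number and bars the mean with SD (n = 3). The groups lie apart for Abcc1 and Abcc10, and Abcc5 has 1 low value, 7.78 in DPM replicate 3.

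Among the P-glycoprotein genes, Abcb1a (probe set 10519527) read 7.68, 7.70 and 7.70 in DPM replicates 1 to 3 and 7.71, 7.55 and 7.84 in vehicle replicates 1 to 3. The DPM values lay inside the range of the vehicle values. The means were 7.69 ± 0.01 and 7.70 ± 0.15 (SD, n = 3 each). They differed by -0.01 (SE 0.10, interval -0.24 to 0.23), with a limma adjusted p of 0.9996. The sign turned when vehicle replicate 3 was left out (0.061), or both arrays numbered 3 (0.057).

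Abcb1b (probe set 10519555), the other P-glycoprotein gene, read 6.39, 6.54 and 6.46 in DPM and 6.61, 6.43 and 6.59 in vehicle tumours, and the groups overlapped. These are dim values, below the filter. In the fit without the filter the difference was -0.08 (SE 0.11, limma adjusted p = 1, n = 3 each), with an interval from -0.34 to 0.18. The log2 ratio of Abcb1a to Abcb1b signal was 1.28, 1.16 and 1.24 in DPM tumours and 1.10, 1.12 and 1.25 in vehicle tumours. The mean ratio was higher by 0.07 in DPM tumours, with an exact permutation p of 0.3 (two-sided), where 0.1 is the smallest p possible. The ratio compares change only, since probe sets differ in brightness, and the paralogues are similar enough that some probes may read both.

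Endothelial cells are a known site of Abcb1a and Abcg2. The mean was higher in DPM tumours for 11 of 13 endothelial markers, with a median difference of 0.093 and 0 called. The endothelial score, which averages the markers after each is centred on its own mean across arrays, was 0.236, -0.001 and -0.093 on the DPM and 0.042, -0.11 and -0.074 on the vehicle arrays. Summed endothelial intensity ran from 6980 to 8890 in DPM and from 6960 to 7600 in vehicle tumours. The array with the highest endothelial score, DPM replicate 1, was the second lowest for Abcb1a and level with vehicle replicate 1 for Abcg2. The array with the lowest score, vehicle replicate 2, was the lowest for both Abcb1a and Abcg2. The part of endothelial content in the levels of these genes was not tested.

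Abcg2 (probe set 10538640) read 8.87, 8.70 and 8.90 in DPM tumours and 8.87, 8.52 and 8.86 in vehicle tumours. Vehicle replicate 2 was the lowest of the 6, and the other 5 lay between 8.70 and 8.90. The means were 8.82 ± 0.11 and 8.75 ± 0.20 (SD, n = 3 each). DPM tumours were higher by 0.07 (SE 0.12, interval -0.21 to 0.36), with a limma adjusted p of 0.9996. Without vehicle replicate 2 the difference was -0.04.

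The alveolar secretory markers, which include the casein genes, were also lowest in that tumour. Their score was -0.793 in vehicle replicate 2 and between 0.058 and 0.366 on the other 5 arrays. All 8 of the markers tested had the higher mean in DPM tumours, with a median difference of 0.118 and 0 called. Summed intensity of these markers ran from 39600 to 42500 in DPM and from 25600 to 44700 in vehicle tumours. The part of secretory content in the Abcg2 values was not tested.

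Abcc1, which encodes MRP1, an exporter of glutathione conjugates, leukotrienes and anticancer drugs, had the largest difference of the set. Its probe set (10433735) read 9.23, 9.40 and 9.33 in DPM replicates 1 to 3 and 9.50, 9.72 and 9.53 in vehicle replicates 1 to 3. Every DPM value lay below every vehicle value, as it did for 2.98% of all genes. The means were 9.32 ± 0.09 and 9.58 ± 0.12 (SD, n = 3 each), or 0.833 times the vehicle level with an interval from 0.713 to 0.974. The log2 difference of -0.26 (SE 0.10) had an unadjusted p of 0.0276 and an adjusted p of 0.9996 in limma. The unadjusted p was 0.0544 with median centring, 0.109 with no normalisation between arrays, and 0.0718 with both arrays numbered 3 left out. It was 0.0917 without DPM replicate 1, 0.0556 without DPM replicate 3 and 0.0838 without vehicle replicate 2. Under the other alternatives the unadjusted limma p ran from 0.0203, with the replicate number as a block, to 0.0471, with array weights. The two-sided exact permutation p was 0.1, the smallest that 3 against 3 arrays can give. With any 1 array or both arrays numbered 3 left out the difference stayed between -0.304 and -0.195, and its adjusted p was never below 0.902 in limma under any alternative.

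The separation of Abcc1 depended on normalisation between arrays. Deposited intensities were 567, 648 and 710 in DPM and 697, 772 and 836 in vehicle tumours, so that DPM replicate 3 stood above vehicle replicate 1. Within each replicate number the vehicle array was the brighter, and replicate 3 was the brightest of its group. Groups without overlap made up 5.91% of all 19938 genes after normalisation, and 2 of the 9 transporter genes. Without normalisation 3.38% of all genes were apart, and 0 of the 9.

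**Figure D3:**
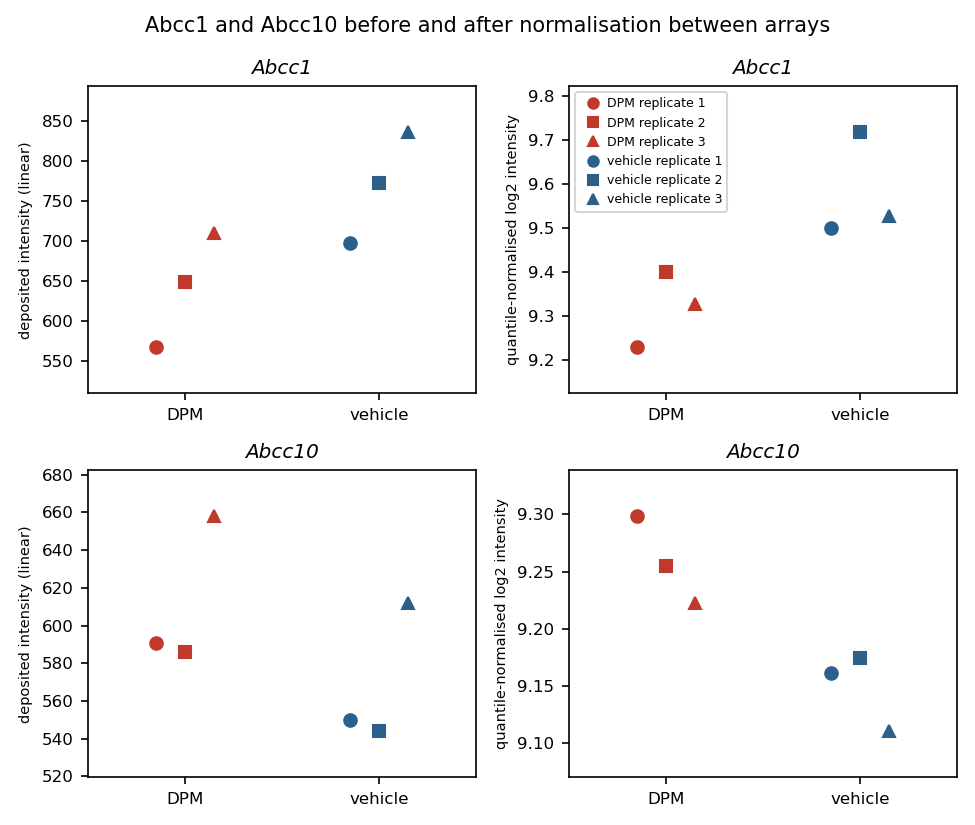
Abcc1 (top) and Abcc10 (bottom) in each tumour, as deposited linear intensity (left) and as quantile-normalised log2 intensity (right); symbols mark the replicate number and the axes do not start at 0. For both genes the groups overlap on the left, where replicate 3 is the brightest of each group, and lie apart on the right.

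Basal epithelial markers, averaged into a score, were lower on the DPM arrays, as Abcc1 was. All 8 had the lower mean in DPM tumours (median difference -0.24, 0 called), and their score was -0.063, -0.349 and -0.109 on the DPM and 0.076, 0.296 and 0.148 on the vehicle arrays, without overlap. Summed intensity ran from 4820 to 6480 in DPM and from 7330 to 9010 in vehicle tumours. Taken singly, 2 of the 8 markers had groups apart, against 6.97% of all genes tested. No other score of the 10 marker lists was apart. Lower means in DPM were not particular to basal markers. They were also seen for 7 of 7 fibroblast, 5 of 5 lymphocyte and 8 of 9 macrophage markers tested. Vehicle replicate 2 was highest for both the basal score and Abcc1, while DPM replicate 2 was lowest for the score and DPM replicate 1 for Abcc1. The part of basal cell content in the Abcc1 values was not tested. The 3 genes whose profile over the 6 arrays was nearest to that of Abcc1 were Atp8a1, which encodes a phospholipid flippase, Gps1, which encodes a COP9 signalosome subunit, and Gabbr1, which encodes a GABA-B receptor subunit. Their root mean square distances from it were 0.037, 0.038 and 0.046 log2, where the SD of Abcc1 itself over the arrays was 0.171. These were the nearest of 14953 genes, so closeness over 6 arrays is partly a matter of search.

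Abcc2, the MRP2 exporter of the apical membrane of hepatocytes and other polarised cells, gave dim values below the filter. Its probe set (10463308) read 7.03, 6.81 and 7.14 in DPM and 6.93, 6.90 and 7.05 in vehicle tumours, and the DPM values spanned the vehicle values. In the fit without the filter the difference was 0.03 (SE 0.12, limma adjusted p = 1, n = 3 each), with an interval from -0.24 to 0.31. It was -0.04 without DPM replicate 3 and -0.012 with array weights.

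Abcc3 encodes MRP3, a basolateral exporter of glucuronides and bile salts. Its probe set (10389894) read 8.83, 8.78 and 8.67 in DPM and 8.91, 8.84 and 8.64 in vehicle tumours. The groups overlapped, and the arrays numbered 3 were the lowest of each group. The difference was -0.04 (SE 0.10, limma adjusted p = 0.9996, n = 3 each), with an interval from -0.28 to 0.20, and it turned to 0.008 without DPM replicate 3 and 0.02 without vehicle replicate 1.

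Of the cyclic nucleotide exporters, Abcc4 encodes MRP4, which also carries prostaglandins and urate. Its probe set (10422280) read 7.89, 7.69 and 7.50 in DPM and 7.67, 7.67 and 7.60 in vehicle tumours. The DPM tumours held both the highest and the lowest value, and their SD was 0.20 against 0.04 among vehicle tumours (n = 3 each). The means were 7.69 and 7.65, which differed by 0.04 (SE 0.12, interval -0.23 to 0.31, limma adjusted p = 0.9996). Without DPM replicate 1 it was -0.055.

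Abcc5 encodes MRP5, which exports cyclic GMP and nucleotide analogues. It varied most of the 9, with an SD of 0.284 over the 6 arrays. Its probe set (10438478) read 8.49, 8.38 and 7.78 in DPM and 8.50, 8.49 and 8.21 in vehicle tumours. DPM replicate 3 was the lowest and vehicle replicate 3 the next, while the other 4 lay between 8.38 and 8.50. The mean difference was -0.19 (SE 0.19, limma adjusted p = 0.9996, n = 3 each), with the widest interval of the set, from -0.63 to 0.25. Without DPM replicate 3 it was 0.034, and with both arrays numbered 3 left out it was -0.061.

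Deposited Abcc5 intensity was 231 in DPM replicate 3 and from 314 to 352 on the other 5 arrays, so the low value was present before normalisation. Fibroblast markers were also lowest in that tumour. Their score was -0.88 in DPM replicate 3 and between -0.02 and 0.392 on the other arrays, and 7 of 7 markers tested had the lower mean in DPM tumours (median difference -0.325, 0 called). Summed fibroblast marker intensity ran from 4730 to 10300 in DPM and from 8340 to 10500 in vehicle tumours. The macrophage score was lowest there as well, at -0.319, with 8 of 9 markers lower in DPM (median difference -0.178, 0 called). The sum of macrophage marker intensities ran from 9930 to 12900 and from 11800 to 14300. Vehicle replicate 3, the next lowest for Abcc5, was not low for either: it scored 0.11 for fibroblast and 0.239 for macrophage markers. The part of either cell type in the Abcc5 values was not tested. The nearest profiles to Abcc5 over the 6 arrays were those of Srpx, which encodes a sushi-repeat protein, the pseudogene Slfn10-ps, and Fcgr2b, which encodes an inhibitory Fc receptor, at root mean square distances of 0.047, 0.051 and 0.055 log2.

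Abcc10 encodes MRP7, which carries taxanes and glucuronides. Its probe set (10451261) read 9.30, 9.26 and 9.22 in DPM and 9.16, 9.17 and 9.11 in vehicle tumours. All DPM values lay above all vehicle values, as they did for 2.93% of all genes. The means were 9.26 ± 0.04 and 9.15 ± 0.03 (SD, n = 3 each), or 1.08 times the vehicle level with an interval from 0.949 to 1.23. The log2 difference of 0.11 (SE 0.08) had an unadjusted p of 0.209 and an adjusted p of 0.9996 in limma. The exact permutation p was 0.1, two-sided. That is the smallest possible, and any gene with groups apart has it. As for Abcc1, the deposited intensities overlapped, at 591, 586 and 658 in DPM and 550, 544 and 612 in vehicle tumours. The difference was between 0.09 and 0.128 under all 18 alternatives.

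**Figure D4:**
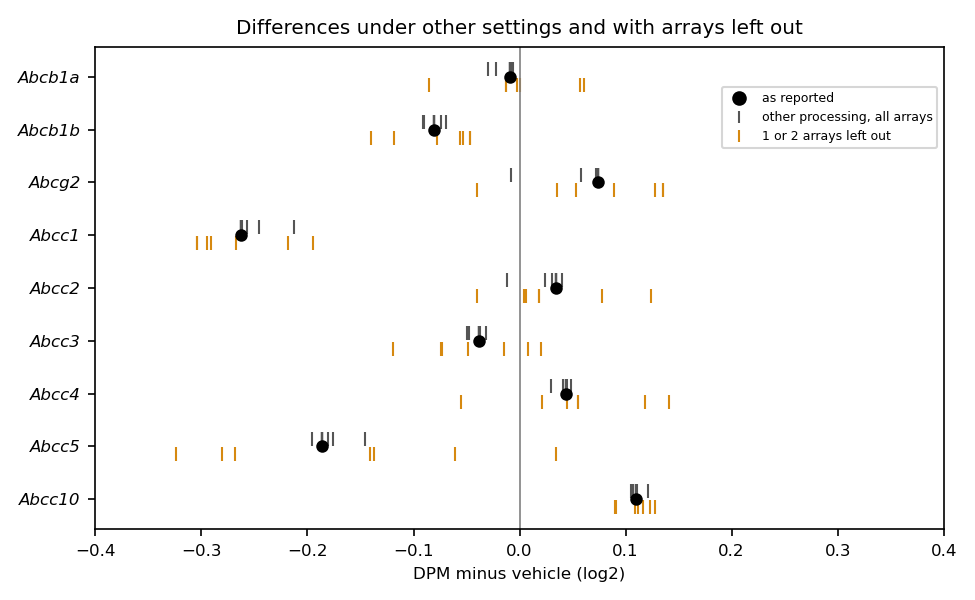
DPM minus vehicle difference (log2) of each gene as reported (point), under other processing of all 6 arrays (grey ticks) and with 1 or 2 arrays left out (orange ticks). Abcb1b, Abcc1 and Abcc10 keep their sign throughout, and the orange ticks of Abcc5 run from -0.324 to 0.034.

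Other ABC genes, and genes whose products bear on these pumps, were read from 9 lists. Of the 87 genes tested, 0 were called and 8 had an unadjusted p under 0.05 in limma, or 9.2%, against 3.87% of all genes tested. The lists were chosen with earlier results known, so nothing is read from that share. The mean was higher in DPM tumours for 46, or 52.9%, against 50.3% of all genes tested, and the median difference was 0.01. None of the ABC genes outside the multidrug set was called, over 4 lists with 26 genes tested (16 higher, median difference 0.039). Among the other ABCC genes (2 of 4 higher), Abcc9, a potassium channel regulator, read 9.14 ± 0.05 with DPM and 8.89 ± 0.10 with vehicle (SD, n = 3 each), or 0.25 higher (SE 0.09, limma adjusted p = 0.9996). Abcc8, its relative in insulin-secreting cells, differed by -0.03. Transporters of organelles had 5 of 9 members higher (median difference 0.109), led by Abcb9, a lysosomal peptide transporter (0.27), and Abcb6, a porphyrin transporter (0.35). For lipid and sterol transporters 5 of 9 were higher (median 0.027), and the smallest p-values belonged to the surfactant lipid transporter Abca3 (0.18) and to Abca5 (-0.18). The soluble ABC proteins were higher for 4 of 4 (median 0.074), with the translation factor gene Abcf1 at 0.17 and Abcf3 at 0.08.

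Regulators of efflux pump transcription were higher in DPM for 10 of 17 members tested, with a median difference of 0.023 and no member called. The hypoxia factors Hif1a (-0.24, SE 0.13) and Epas1 (0.21, SE 0.13) had the smallest p-values, in opposite directions. NRF2 target genes were lower for 8 of 13 (median -0.014), with Ugdh, which makes the glucuronic acid donor, at -0.27 and the haem oxygenase gene Hmox1 at -0.28. Abcc2 and Abcc4, the pumps with the antioxidant motif shown above, differed by 0.03 and 0.04. Conjugating enzymes were higher for 8 of 15 (median 0.045), with the glutathione transferase genes Gstt2 at 0.29 and Gstz1 at 0.22.

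Of the drug and prostaglandin carriers tested, 5 of 10 had the higher mean in DPM tumours (median difference -0.009, 0 called). Slco2a1, which takes up the prostaglandins that Abcc4 exports, read 11.86 ± 0.33 in DPM and 11.45 ± 0.23 in vehicle tumours (SD, n = 3 each). Slc47a1, a proton-coupled exporter of organic cations placed in this list, read 10.76 in DPM replicate 2 and between 7.69 and 7.83 in the other 5 tumours. Scaffolds that hold pumps at the membrane were lower for 4 of 6 (median -0.136), and 3 of the 6 had an unadjusted p under 0.05 in limma, against 3.87% of all genes tested, with signs both ways. The caveolin gene Cav2 differed by -0.53 (SE 0.18, limma adjusted p = 0.9996, n = 3 each) and Msn, which encodes moesin, by -0.32. The groups overlapped for both. The other of the 3, Slc9a3r2, a PDZ scaffold gene named after its value was seen, was higher in DPM tumours by 0.30. Its groups were apart, as they were for 6.97% of all genes tested. The basal epithelial score was lower on the DPM arrays too, as given beside Abcc1. That score was highest in vehicle replicate 2 (0.296) and lowest in DPM replicate 2 (-0.349). Cav2 read 9.64, 9.20 and 9.17 in DPM replicates 1 to 3 and 10.04, 9.53 and 10.02 in vehicle replicates 1 to 3. Vehicle replicate 2 was thus the lowest vehicle array for Cav2. The part of basal cell content in the scaffold values was not tested.

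**Figure D5:**
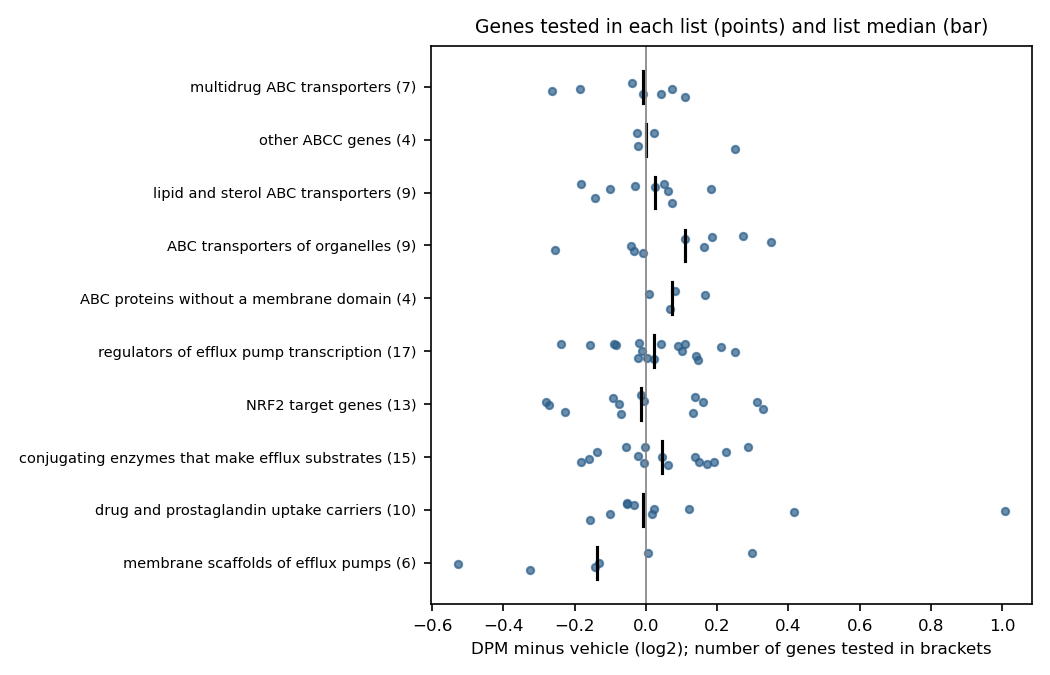
DPM minus vehicle difference (log2) of every gene tested in the 10 lists, each point a gene and each bar the list median, with the number of genes in brackets. The medians lie between -0.136 and 0.109, and the point at 1.01 is Slc47a1, set by its value in DPM replicate 2.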

How the data were processed

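The table deposited by the authors holds linear intensities of 35556 probe sets on 6 arrays. Per the labels' protocols, 100 ng of total RNA from solid tumour tissue was labelled with biotin by the Affymetrix procedure. Background correction, probe summary, scaling and genome build are not given in the sources used here. Probe sets were named by GEO's platform annotation: 21789 carried 1 gene, 1621 several, and 12146 were unlisted. Current symbols were looked up through Entrez identifiers, which were matched for 21698 of the probe sets with 1 gene. Each gene kept its brightest probe set. Intensities were floored at 1, logged (log2), quantile-normalised and filtered at the 25th percentile of gene means. The comparison used lmFit and eBayes (intensity trend, two-sided) of limma 3.58.1 under R 4.3.3, adjusted by Benjamini-Hochberg across 14953 genes; adjusted p-values come from it. The test was tested on data simulated from the fit itself, with planted differences larger than any seen among the transporters. It does not speak to differences of their size. Named genes were the 9 transporters, up to 2 genes per list by smallest p, and the 3 nearest profiles to the 2 most variable transporters. The transporters and lists were chosen with earlier results of these data known. Settings varied were filter, normalisation, probe set rule, variance model, array weights, offset, replicate block and arrays left out. Replicate numbers were not taken as pairs.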

Additional observations from a re-analysis of the deposited data

How the results depend on the processing

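No gene, transporter or list member was called under any of the 18 alternatives. Genes with an unadjusted p under 0.05 numbered 316 to 753. The count of transporters with the higher mean in DPM, 4 as reported, was 2 with array weights, where Abcg2 (-0.008) and Abcc2 (-0.012) turned sign, and 3 to 5 with 1 array left out. The count with groups apart, 2 as reported, was 0 without normalisation between arrays. It was 2 to 4 with 1 array left out and 5 without both arrays numbered 3, where fewer values make separation easier: 13.8% to 17.9% and 22.2% of the genes tested were then apart. With 1 array left out, differences ran from -0.085 to 0.061 for Abcb1a, -0.04 to 0.135 for Abcg2, -0.04 to 0.124 for Abcc2, -0.119 to 0.02 for Abcc3, -0.055 to 0.141 for Abcc4 and -0.324 to 0.034 for Abcc5. Abcb1a was 0.057 without both arrays numbered 3. The ratio of Abcb1a to Abcb1b kept its sign in the 16 alternatives run for it, from 0.0446 to 0.1175. With the replicate number as a block, 0 genes were called and 723 had an unadjusted p under 0.05, against 578. Deviations of same-numbered arrays correlated at -0.12, 0.11 and 0.371, the last being the highest of all. Those of differently numbered arrays correlated at -0.315 to 0.218. With 3 arrays in each group these values cannot settle whether the numbers pair the tumours. The numbers were not taken as pairs in the reported fit. Array brightness and the lack of detection calls limit what can be said of Abcb1b and Abcc2, which lay below the filter. The same limit bears on Abcb1a, Abcc4 and Abcc5, which passed it but fell below the alternative filter at the 50th percentile. Near background a true difference can be compressed, so their small differences are not evidence of no change.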
